A study of Melitaea cinxia with 170 samples.

Results

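Among the gene models of the Glanville fritillary butterfly, Melitaea cinxia, 50 were lower in flown than in control Åland butterflies at 20 h and higher in flown than in control Pikku Tytärsaari butterflies at the same time. They were chosen from 16667 gene models by their medians. Levels are given as CPM, a butterfly's count divided by its total and multiplied by 1000000. The ratio R20 was the log2 of the flown median plus 0.5 CPM over the control median plus 0.5 CPM at 20 h. Of 2465 gene models with a mean of at least 20 CPM, 255 had R20 below 0 in Åland and above 0 in Pikku Tytärsaari, and 1121 had the opposite signs. The 50 members were those whose weaker of both changes was largest. Identifiers of the project stand for the genes, and 0 of the 16667 matched the RefSeq gene table used here, so no gene name, role, position or sequence is given for any of them. Names would also have been needed to check the thorax against marker genes, and that check was not made.

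The thorax of a butterfly is filled mostly by flight muscle, with cuticle, fat body, trachea, nerve and gut tissue beside it. Insect flight muscle contracts on aerobic metabolism, and its energy supply, ion handling and repair after exertion all draw on transcription. The Glanville fritillary is a model species of dispersal ecology. In the Åland archipelago it lives as a metapopulation on scattered dry meadows, where colonisation of empty patches depends on flight. Pikku Tytärsaari is a small and remote island in the Gulf of Finland whose population is isolated.

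RNA was taken from the thorax of 85 butterflies from Åland (AL) or Pikku Tytärsaari (PT), and 2 strand-specific libraries were made from each, with mean inserts of 650 nt and 450 nt, 170 libraries in all. Flown butterflies were frozen 1 h after the flight treatment began (Flight1h), or were caged overnight with food and frozen the next day, at about 20 h (Flight20h). Control butterflies (Control1h and Control20h) were handled and frozen on the same schedule but were not flown. Both sexes were present in every group.

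The AL groups held 13 Flight1h butterflies (7 females and 6 males), 6 Control1h (4 and 2), 15 Flight20h (10 and 5) and 6 Control20h (4 and 2). The PT groups held 16 Flight1h (10 females and 6 males), 7 Control1h (4 and 3), 15 Flight20h (9 and 6) and 7 Control20h (5 and 2). Both libraries of a butterfly were summed, which gave 1820059 to 6944328 counts per butterfly with a median of 3955268. Each sample was a whole thorax, so fewer cells of a type and less RNA per cell cannot be told apart in any of the levels below. Any step of handling or sequencing that followed the island of origin cannot be told apart from the island.

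The values that chose the members were spread widely, and a few members stood far from the rest. R20 in AL ran from -5.20 to -0.35 over the 50 members with a median of -0.60, against a median of 0.28 over all 2465 gene models. R20 in PT ran from 0.36 to 5.56 with a median of 0.66, against -0.16 over all 2465. The smaller of both sizes had a median of 0.49. The last member, MCINXTMP_011179, had 0.350643 and the first gene model outside the 50 had 0.350466, so the edge of the list fell inside a continuum. These numbers describe the choice and support nothing by themselves. Scaling moved the whole distribution: with TMM-scaled library sizes the medians of all gene models were 0.01 in AL and -0.06 in PT, and the members' medians were -1.002 in AL and 0.73 in PT. All 50 members kept both signs under that scaling.

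**Figure D1:**
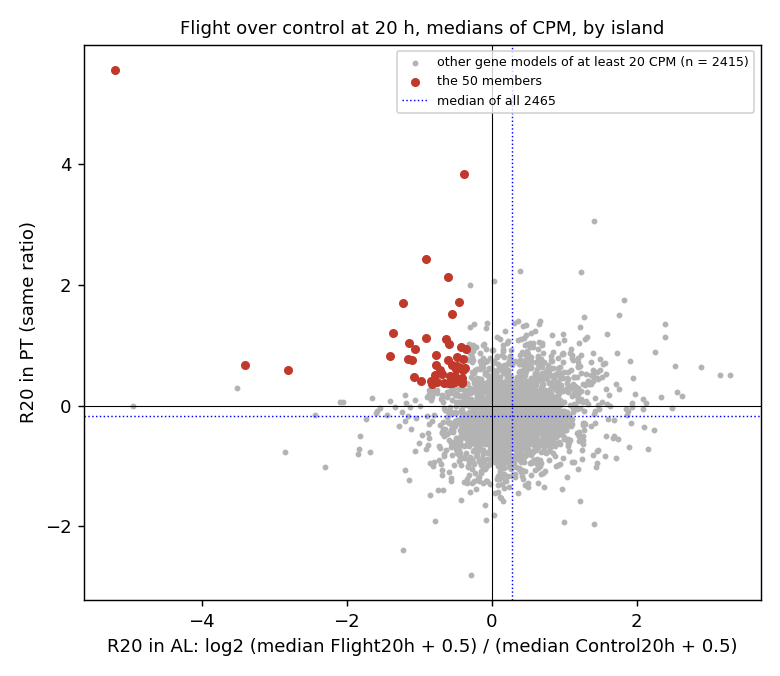
R20 (log2 of flown over control median at 20 h) in AL on the x axis and in PT on the y axis for the 2465 gene models of at least 20 CPM, with the 50 members in red and the medians of all gene models as dotted lines. The members fill the upper left corner by their definition, and MCINXTMP_008527 at -5.20 and 5.56 lies far from the others.

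The largest opposite change at 20 h belonged to MCINXTMP_008527. In AL it had a lowest, median and highest level of 5.22, 10.5 and 703.7 CPM in Flight20h butterflies, against 5.10, 404.2 and 887 CPM in Control20h butterflies. In PT the same values were 5.49, 295.9 and 2129 CPM in Flight20h butterflies, against 1.55, 5.77 and 1158 CPM in Control20h butterflies. The ranges of flown and control butterflies overlapped almost wholly on both islands, and the medians moved because most butterflies of a group were either low or high. No butterfly of the 85 had a level between 33.2 and 170 CPM, with 44 below that gap and 41 above it. At 20 h, 5 of 15 flown and 5 of 6 control AL butterflies lay above the gap, and 9 of 15 flown and 2 of 7 control PT butterflies did so. This split made the median a coarse summary: with means in place of medians, R20 of MCINXTMP_008527 was -2.04 in AL and 0.58 in PT. By sex, its R20 in PT was 5.40 in females and 0.18 in males, with 2 control males. In AL it was -4.93 in females and -6.28 in males.

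The member ranked next, MCINXTMP_000215, varied continuously. Its lowest, median and highest levels in AL were 5.49, 22.8 and 74.8 CPM in Flight20h butterflies, against 15.2, 54.0 and 71.6 CPM in Control20h butterflies. In PT they were 12.96, 63.0 and 322.4 CPM in Flight20h butterflies, against 8.01, 19.1 and 86.1 CPM in Control20h butterflies. Flown and control ranges overlapped on both islands, and R20 was -1.22 in AL and 1.69 in PT. The PT value of MCINXTMP_000215 moved both ways with single control butterflies but stayed above 0. It was 0.85 without Control20h butterfly 1, 2 or 5, 0.98 without butterfly 6, and 1.94 without butterfly 3, 4 or 7. The insert size also moved it, to 0.64 in the 650 nt libraries alone and 2.52 in the 450 nt libraries alone.

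MCINXTMP_007834 had the smallest overlap between flown and control butterflies over both islands. In AL its lowest, median and highest levels were 10.6, 34.9 and 175.7 CPM in Flight20h butterflies, against 51.2, 90.2 and 284.4 CPM in Control20h butterflies. In PT they were 81.6, 252.5 and 556.9 CPM in Flight20h butterflies, against 62.6, 109.8 and 251.7 CPM in Control20h butterflies. A flown butterfly was below a control one in 84.4% of AL pairs and above it in 77.1% of PT pairs. In AL 10 of 15 flown butterflies lay below the lowest control, and in PT 12 of 15 flown butterflies lay above the control median.

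MCINXTMP_013508 was the most abundant member, with a mean of 17729 CPM over the 85 butterflies. In AL its lowest, median and highest levels were 5959, 10950 and 26760 CPM in Flight20h butterflies, against 7488, 20460 and 34770 CPM in Control20h butterflies. In PT they were 12630, 20600 and 38620 CPM in Flight20h butterflies, against 8067, 9426 and 30740 CPM in Control20h butterflies. In PT, 6 of the 7 controls lay at or below 12690 CPM, near the lowest flown butterfly, while the AL controls were spread over most of the flown range and above it. R20 in AL was -0.90 with all butterflies, -0.43 without Control20h butterfly 3, 5 or 6, and at lowest -1.25 with another left out. By sex, R20 in PT was 1.14 in females and 0.02 in males, with 2 control males. In AL it was -0.39 in females and -0.87 in males.

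MCINXTMP_010415 also ranked among those of smallest overlap, but its level differed by island far more than by flight. In AL its lowest, median and highest levels were 2.45, 27.0 and 271 CPM in Flight20h butterflies, against 32.7, 72.0 and 260.5 CPM in Control20h butterflies. In PT they were 0, 2.01 and 40.5 CPM in Flight20h butterflies, against 0.32, 0.92 and 2.32 CPM in Control20h butterflies. The PT values of MCINXTMP_010415 came from very few reads per butterfly, so its R20 of 0.82 in PT depended on the 0.5 CPM added to both medians and was 0.46 with 2 CPM. In AL its R20 was -1.40, -0.88 without Control20h butterfly 1, 5 or 6, and at lowest -1.78 with another left out.

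**Figure D2:**
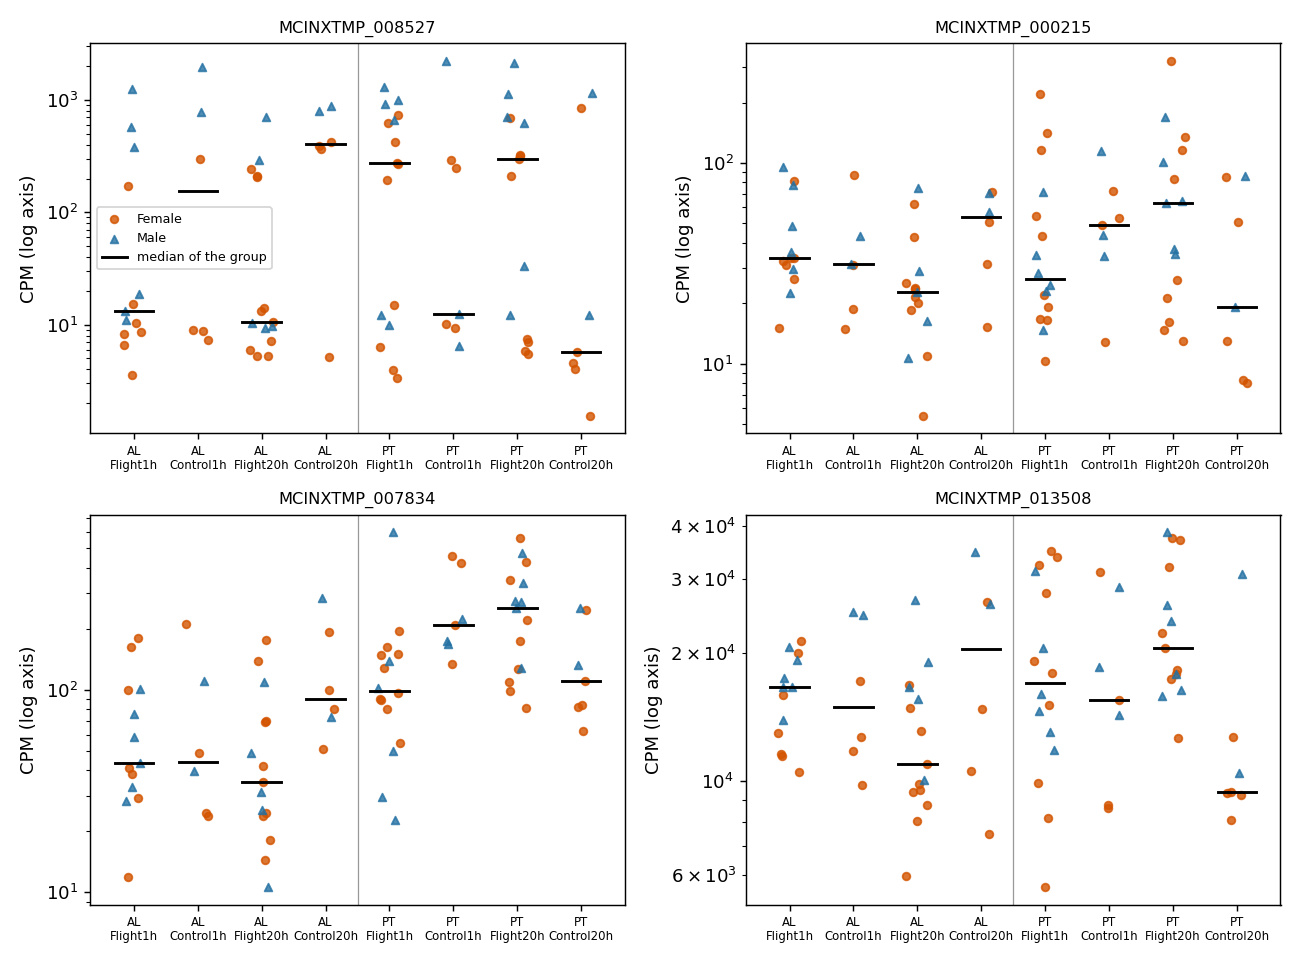
CPM on a log axis of 4 members in every butterfly, by island, treatment and time, with females as circles, males as triangles and the group median as a bar. MCINXTMP_008527 splits into a low and a high set of butterflies in every group, whereas MCINXTMP_000215, MCINXTMP_007834 and MCINXTMP_013508 vary continuously and flown and control butterflies overlap.

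Over the 50 members, flown and control butterflies overlapped everywhere at 20 h. In AL 0 of 50 members had every flown butterfly below every control, and in PT 0 of 50 had every flown butterfly above every control, with 0% of the 2465 gene models doing so on either island. A flown AL butterfly was below a control AL butterfly in 44.4% to 84.4% of pairs, with a median member at 67.8% and a median of 36.7% over all 2465. A flown PT butterfly was above a control PT butterfly in 48.6% to 89.5% of pairs, with a median member at 67.1% against 42.9% over all. A fit over all 85 butterflies with sex as a term put 48 members below 0 in AL and 47 above 0 in PT, with medians of -0.76 and 0.61 on the log2 scale. The fit used the same 20 h butterflies that chose the members, so these signs and medians are a description only.

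Fewer members kept both signs when the butterflies were split by sex, and most kept them when the libraries were split by insert size. Among males alone, 39 members were below 0 in AL, 36 were above 0 in PT and 28 did both, from 2 control males on each island. Among females alone, 44 were below 0 in AL, 44 were above 0 in PT and 38 did both. Both signs held in both sexes for 20 members. In the 650 nt libraries alone 43 members kept both signs, in the 450 nt libraries alone 46 did, and 40 did so in both. With means in place of medians, 33 of the 50 kept both signs. The same 20 h butterflies and libraries chose the members, so these counts are a description only. No share over all gene models was taken for them.

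Each butterfly could also be read across the members. In AL, Flight20h butterflies had 14 to 33 of the 50 members above the flown median and Control20h butterflies had 35 to 46. In PT, Flight20h butterflies had 31 to 47 members above the control median and Control20h butterflies had 14 to 29. On this count no flown AL butterfly overlapped the controls and no flown PT butterfly did. The members were chosen by these same medians, so the separation describes the choice and supports nothing by itself.

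Set beside the 1 h groups, both 20 h groups of AL and the 20 h controls of PT were at an extreme for most members. In AL the Flight20h median was the lowest of the 4 AL group medians for 36 members (14.9% of all 2465 gene models), and the Control20h median was the highest for 33 (12.2% of all). In PT the Flight20h median was the highest of the 4 for 20 members (18.0% of all), and the Control20h median was the lowest for 39 (19.4% of all). The flown AL median was higher at 20 h than at 1 h for 11 of 50 members (67.6% of all 2465 gene models), and the control AL median was so for 39 (45.6% of all). The flown PT median was higher at 20 h than at 1 h for 29 members (37.2% of all), and the control PT median was so for 8 (63.3% of all). The islands likewise stood apart by group: the AL median was above the PT median for 22 members in Flight1h, 27 in Control1h, 16 in Flight20h and 43 in Control20h. Over all 2465 the shares were 39.4%, 45.4%, 63.9% and 34.0% in the same order. The rule used the 20 h medians, so these counts describe where the chosen difference lies.

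**Figure D3:**
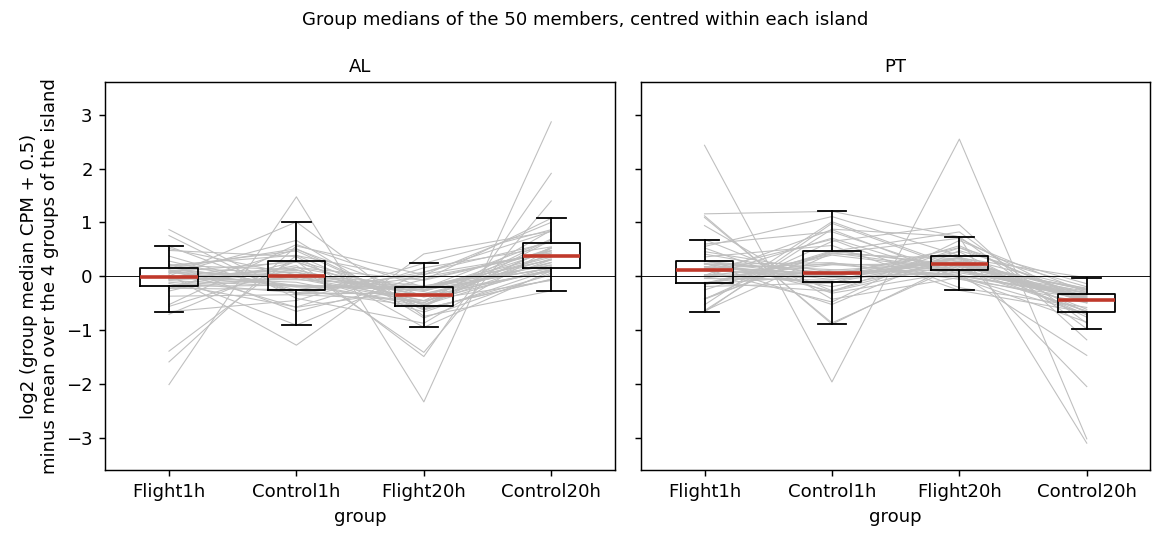
For each of the 50 members (grey lines), log2 of the group median plus 0.5 CPM minus the mean over the 4 groups of the island; boxes span the quartiles with the median in red and whiskers to the farthest member within 1.5 box lengths. In AL Control20h is highest for 33 members and Flight20h lowest for 36. In PT Control20h is lowest for 39 and Flight20h highest for 20, while both 1 h groups lie near 0 on both islands.

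The butterflies frozen at 1 h entered the choice through the minimum mean level only, not through R20. There the members did not show the opposite island pattern more often than other gene models. The median ratio of Flight1h over Control1h was below 0 in AL for 25 of 50 members (48.3% of all 2465 gene models) and above 0 in PT for 25 (57.8% of all). Both signs together held for 12 members, which is 24% against 25.5% of all gene models, and the reverse of both signs also held for 12. The members' median ratio was 0.00 in AL and -0.01 in PT.

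Flight effects at 1 h were tested with edgeR's quasi-likelihood test over 42 butterflies and 7790 gene models, with Benjamini-Hochberg adjustment over all of them and a threshold of 0.05. All 50 members passed the filter on low counts. In AL 0 of 50 members passed the test, against 0.334% of all gene models tested (0.282% higher and 0.0513% lower in flown butterflies), and 5 members were under an unadjusted p of 0.05 (7.03% of all were). The fitted log2 fold change in AL was below 0 for 34 members and above 0 for 16. It was above 0 for 48.9% of all gene models tested and 46.5% of those of at least 20 CPM. The members' median was -0.20, against -0.01 over all tested. DESeq2's Wald test called 2 of 50 members, both higher in flown AL butterflies, against 0.963% of the 9238 gene models to which it gave an adjusted p. They were MCINXTMP_012925 (log2 fold change 1.97, adjusted p = 0.00359) and MCINXTMP_010628 (1.05, adjusted p = 0.0474), the second chosen after its values were seen. Neither tool called a member lower in flown AL butterflies.

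The largest positive estimate in AL at 1 h was that of MCINXTMP_012925, against the direction that the rule asked for at 20 h. Its 20 h fall in AL rested on medians, with means of 33.6 CPM in Flight20h and 21.3 CPM in Control20h butterflies. R20 in AL was -0.42, with -0.38 in females and -0.19 in 450 nt libraries, but 1.36 in males and 0.63 in 650 nt libraries. At 20 h a flown AL butterfly was below a control one in 46.7% of pairs. At 1 h the lowest, median and highest levels of MCINXTMP_012925 in AL were 5.74, 14.8 and 115.6 CPM in Flight1h butterflies, against 1.30, 5.69 and 25.6 CPM in Control1h butterflies. The ranges overlapped, with 5 of 13 flown butterflies above every control. The log2 fold change was 1.89 ± 0.47 (SE, n = 13 flown and 6 control) with an edgeR adjusted p of 0.059. It passed without Control1h butterfly 1, a female at 25.6 CPM, with 2.59 and an adjusted p of 0.0157. The largest negative estimate was -1.70 ± 1.15 for MCINXTMP_008527 (edgeR adjusted p = 0.893), for which 4 of 13 flown and 3 of 6 control AL butterflies lay above the gap. Without Control1h butterfly 1 it was -1.12, and without butterfly 6 it was -1.13. The medians of MCINXTMP_008527 stood in the same order at 1 h as at 20 h, at 13.3 CPM in Flight1h and 153.7 CPM in Control1h butterflies of AL, and at 273.4 CPM in Flight1h and 12.5 CPM in Control1h butterflies of PT. Its fitted value in PT was 0.58 ± 1.15 (edgeR adjusted p = 0.994), and neither island's difference passed the edgeR test.

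In PT, 0 of 50 members passed the edgeR test for flight at 1 h, against 0% of the 7790 gene models, with 6 members under an unadjusted p of 0.05 (5.35% of all were). DESeq2 called 0 members and 0.0565% of all gene models. The largest positive estimate was that of MCINXTMP_009618, with 12.97, 224.9 and 1160 CPM as lowest, median and highest level in Flight1h butterflies, against 22.4, 55.4 and 296.2 CPM in Control1h butterflies. Its log2 fold change was 1.54 ± 0.89 (edgeR adjusted p = 0.953), and 2.18 without Control1h butterfly 5. The largest negative estimate was that of MCINXTMP_014534, with 18.4, 44.1 and 133.4 CPM in Flight1h butterflies, against 49.0, 139.3 and 232.1 CPM in Control1h butterflies. Its log2 fold change was -1.39 ± 0.39 (edgeR adjusted p = 0.508). Both members had overlapping groups.

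The difference between the islands in the flight effect at 1 h passed for 0 of 50 members, against 0% of all gene models tested by edgeR. Under an unadjusted p of 0.05 there were 4 members (4.84% of all were), and DESeq2 called 0 members and 0.0266% of all gene models. The members' AL minus PT difference was above 0 for 25 and below 0 for 25, with a median of 0.00. The widest estimates were 1.87 ± 0.60 for MCINXTMP_012925 (edgeR adjusted p = 0.747) and -2.28 ± 1.67 for MCINXTMP_008527 (edgeR adjusted p = 1). In simulated data of the same size, the edgeR test recovered 34% of gene models with a 4-fold difference in this comparison and 4% of those with a 2-fold difference, so 2-fold differences would mostly not be detectable with these groups.

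**Figure D4:**
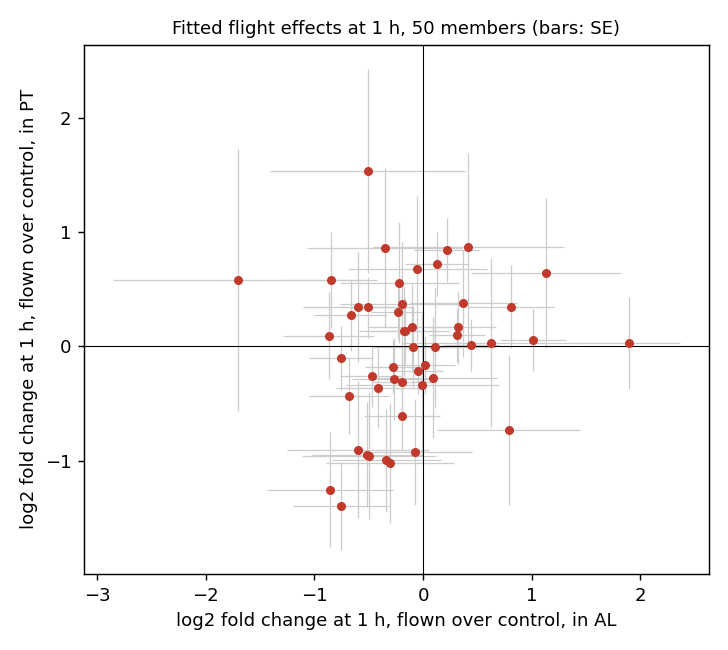
Fitted log2 fold change of flown over control butterflies at 1 h in AL (x axis) and PT (y axis) for the 50 members, with bars of 1 SE. The points scatter around 0 in all directions and 0 members passed the edgeR test on either island.

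Levels at 1 h differed between the islands for some members, in both directions. Between Flight1h butterflies, 15 of 50 members passed the edgeR test for AL over PT, against 24.3% of all 7790 gene models and 31.2% of those of at least 20 CPM. Of the 15, 8 were higher in AL (13.7% of all were) and 7 were lower (10.6% of all). Between Control1h butterflies 7 members passed, against 9.55% of all and 12.5% of those of at least 20 CPM, with 6 higher in AL (6.1% of all) and 1 lower (3.45% of all). All 7 were among the 15 and had the same direction. Both shares of members were close to the background.

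The member with the widest island difference was MCINXTMP_010415, which was higher in AL. Among Flight1h butterflies it had 8.96, 84.6 and 228.2 CPM as lowest, median and highest level in AL, against 0, 2.09 and 26.7 CPM in PT. Among Control1h butterflies it had 17.3, 37.4 and 147.7 CPM in AL, against 0.81, 4.18 and 14.2 CPM in PT. The controls of the islands did not overlap, and 10 of 13 flown AL butterflies lay above every flown PT butterfly. The log2 fold change was 4.78 ± 0.56 in Flight1h (edgeR adjusted p = 2.4e-08) and 3.26 ± 0.79 in Control1h (edgeR adjusted p = 0.00542), the second being 4.03 without PT Control1h butterfly 5.

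MCINXTMP_004285 was also higher in AL. It had 16.5, 44.0 and 81.2 CPM as lowest, median and highest level in AL Flight1h butterflies, against 3.24, 6.95 and 18.2 CPM in PT. In Control1h butterflies the values were 16.2, 27.2 and 146.1 CPM in AL, against 3.42, 7.30 and 17.4 CPM in PT. Above every PT butterfly of their treatment lay 11 of 13 flown and 4 of 6 control AL butterflies. The log2 fold change was 2.34 ± 0.29 in Flight1h (edgeR adjusted p = 2.4e-08) and 2.43 ± 0.44 in Control1h (edgeR adjusted p = 0.000147). The Control1h value was 1.61 without AL butterfly 3, whose level was 146.1 CPM, and still passed with an adjusted p of 0.00585.

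Lower in AL at 1 h were MCINXTMP_014534 in both treatments and MCINXTMP_009618 in flown butterflies. MCINXTMP_014534 had 5.00, 11.5 and 38.1 CPM as lowest, median and highest level in AL Flight1h butterflies, against 18.4, 44.1 and 133.4 CPM in PT. In Control1h butterflies it had 6.07, 11.3 and 68.8 CPM in AL, against 49.0, 139.3 and 232.1 CPM in PT. Above every AL butterfly of their treatment lay 9 of 16 flown and 6 of 7 control PT butterflies. Its log2 fold change was -1.79 ± 0.36 in Flight1h (edgeR adjusted p = 0.000166) and -2.43 ± 0.54 in Control1h (edgeR adjusted p = 0.00195), the second being -3.11 without AL Control1h butterfly 1. Among females alone the Flight1h value was -1.07 and did not pass (edgeR adjusted p = 0.0745). MCINXTMP_009618 had 2.84, 30.4 and 158.8 CPM in AL Flight1h butterflies, against 12.97, 224.9 and 1160 CPM in PT. Of the flown PT butterflies 9 of 16 lay above every flown AL one, and the fitted AL over PT value was -2.72 ± 0.74 (edgeR adjusted p = 0.00588).

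**Figure D5:**
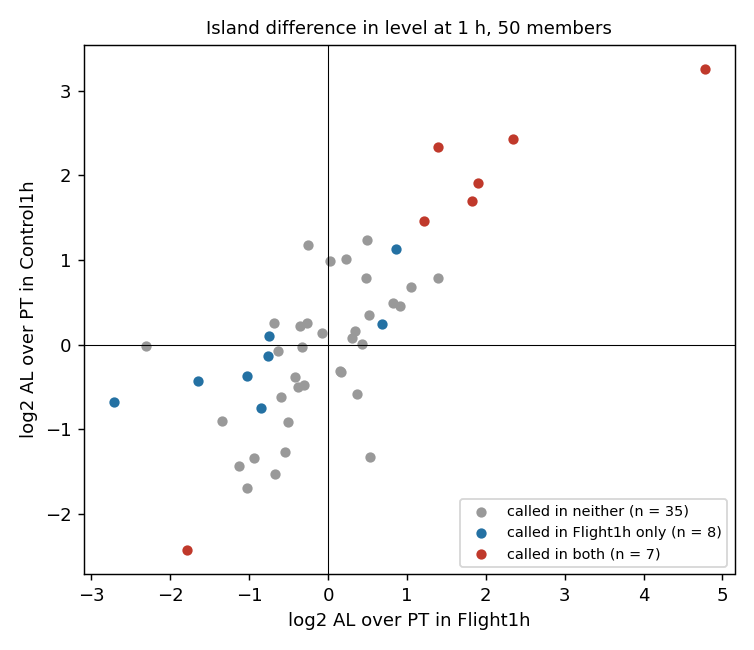
Fitted log2 AL over PT among Flight1h butterflies (x axis) and Control1h butterflies (y axis) for the 50 members, coloured by the edgeR call. The 7 members called in both treatments have the same sign in both, with 6 higher and 1 lower in AL, and a further 8 were called among flown butterflies.

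Sex differences at 1 h were found in 11 of 50 members, against 9.22% of all 7790 gene models and 20.1% of those of at least 20 CPM. The share of members was close to that of gene models of at least 20 CPM, the level that every member had to reach. Of the 11, 6 were higher in males (4.88% of all) and 5 were lower (4.34% of all) in edgeR's test. The split depended on scaling: with DESeq2's size factors in edgeR 13 members passed, 5 higher and 8 lower in males, against 9.23% of all. Within AL alone 10 members passed (6.18% of all did), and within PT alone 6 did (3.76% of all). Of the 50 members, 3 were called both by sex and by island and 27 by neither. No share over all gene models was taken for these counts, nor over those of at least 20 CPM for the alternatives.

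MCINXTMP_006129 had the clearest sex difference. Its lowest, median and highest levels at 1 h were 7811, 14330 and 22250 CPM in 17 males, against 3465, 5545 and 11880 CPM in 25 females. Of the males, 13 of 17 lay above the highest female, and the log2 fold change was 1.56 ± 0.18 (edgeR adjusted p = 1.13e-08). At 20 h its R20 in PT was 0.51 with the sexes together, but 0.03 in females and 0.33 in males. PT Flight20h held 9 females and 6 males, and PT Control20h 5 and 2. The part of this sex make-up in the value was not tested. MCINXTMP_008527, the member with the split levels, had 6.49, 573.3 and 2221 CPM in males, against 3.32, 10.4 and 731 CPM in females. Its log2 fold change was 3.18 ± 0.85 (edgeR adjusted p = 0.0131), with wide overlap of the sexes. The call was lost without PT Control1h butterfly 5, a male at 2221 CPM (2.83, adjusted p = 0.0569). Within AL alone it was 4.32 (adjusted p = 0.027) and within PT alone 1.97 (adjusted p = 0.366).

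Lower in males at 1 h were MCINXTMP_006611 and MCINXTMP_014799. MCINXTMP_006611 had 8.92, 60.4 and 271.4 CPM as lowest, median and highest level in males, against 40.3, 345.1 and 2599 CPM in females, and all 17 males lay below the female median. The fitted male over female value was -2.76 ± 0.48 on the log2 scale (edgeR adjusted p = 0.000106). Within AL alone it was -3.92 (adjusted p = 0.00272) and within PT alone -1.83 (adjusted p = 0.0255). MCINXTMP_014799 had 0.87, 6.20 and 101.4 CPM in males, against 5.16, 41.9 and 208.3 CPM in females. The sexes overlapped, with 16 of 17 males below the female median. Its log2 fold change was -1.84 ± 0.46 (edgeR adjusted p = 0.00747), and -1.53 within PT alone, where it did not pass (adjusted p = 0.194).

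Counts of many members depended on the insert size of the library. Within butterflies at 1 h, limma called 20 of 50 members different between the 650 nt and 450 nt libraries, against 19.4% of 4845 gene models and 29.6% of those of at least 20 CPM. Of these, 6 were higher in the 650 nt libraries (10.4% of all) and 14 were lower (9% of all). Among gene models of at least 20 CPM, 14.8% were higher and 14.8% were lower. The member with the largest fall, MCINXTMP_006129, was also called for sex, at -0.81 ± 0.06 on the log2 scale (limma adjusted p = 1.38e-13). MCINXTMP_002225 followed at -0.81 ± 0.12 (limma adjusted p = 7.1e-07). The largest rises were 0.65 ± 0.05 for MCINXTMP_009511 (limma adjusted p = 2.6e-13) and 0.63 ± 0.08 for MCINXTMP_007759 (limma adjusted p = 4.34e-08). The test pooled the 1 h groups, and whether the insert difference was alike in all groups was not tested.

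Members varied more between like butterflies than other gene models did. The pooled SD of log2 CPM within a group and sex at 1 h had a median of 0.91 over members, from 0.41 to 2.93, against 0.61 over all 2465 gene models. After removing the median of each group and sex, the pairwise Spearman correlation of members over the 42 butterflies at 1 h had a median of 0.09, against 0.05 over all gene models. Of 1225 pairs of members, 46 had a correlation over 0.5, which is 3.76% against 1.10% of all pairs, and 3 had one below -0.5. The points of each pair share libraries and their depth. Linking pairs over 0.5 joined 20 members into 1 set, to which MCINXTMP_000215, MCINXTMP_007834 and MCINXTMP_013508 belonged. A single link was enough to join, and the median correlation within the set was 0.325. No such set was sought among other gene models. MCINXTMP_008527 and 24 other members were linked to none. The closest pair was MCINXTMP_000132 with MCINXTMP_011179 at 0.76.

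A gap in the levels, as in MCINXTMP_008527, was seen in 1 other member. Asking for a gap of over 1 on the log2 scale with at least 10 butterflies on each side, a rule chosen after the values were seen, found 2 of the 50 members (4%) and 14 of the 2465 gene models (0.568%). The gaps were taken over all butterflies, including the 20 h ones whose medians chose the members. A split in levels can move such medians far, so these shares are a description only. The gap of MCINXTMP_008527 was 2.34 and the third largest among the 2465. MCINXTMP_015394 had a gap of 1.47, with no butterfly between 6.11 and 17.9 CPM and 11 butterflies below it, all from PT. In PT it had a lowest, median and highest level of 0, 54.6 and 166.9 CPM in Flight20h butterflies, against 0.65, 3.37 and 144.5 CPM in Control20h butterflies. In AL the values were 56.9, 89.6 and 139.6 CPM in Flight20h butterflies, against 86.9, 116.5 and 313 CPM in Control20h butterflies. Above the gap lay 13 of 15 flown and 3 of 7 control PT butterflies at 20 h, and 12 of 16 flown and 6 of 7 control PT butterflies at 1 h. Its R20 of 3.83 in PT came from that split of 7 control butterflies.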

How the data were processed

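Thorax RNA of 85 butterflies was sequenced from 170 libraries. For every library the authors deposited raw counts by gene model. They also deposited a normalized table of 8258 gene models, a signal that was proportional to library-scaled counts. The tools named per the submitters' processing notes are TopHat2 2.0.5, CASAVA 1.8 and edgeR; the genome build is not given in the sources used here. Groups came from the labels. Counts of both libraries were summed per butterfly. The 20 h contrast chose the members. It received no test, and an edgeR fit over all 85 butterflies gave its log2 fold changes by sign and median only.

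At 1 h, edgeR 4.0.16 (robust quasi-likelihood fit, TMM, filterByExpr, R 4.3.3) fitted 4 island by treatment cells and sex over 42 butterflies. Of the counts, 99.781% were kept, all 50 members passed the filter, and the common biological coefficient of variation was 0.683. limma 3.58.1 compared inserts within butterflies on log2 CPM with a prior count of 2, and DESeq2 1.42.0 was an alternative. The edgeR step was tested on simulated data, where it recovered 15%, 19%, 4%, 4%, 35% and 37% of 2-fold differences in the AL flight, PT flight, AL minus PT, AL over PT in Control1h, AL over PT in Flight1h and sex comparisons. Gene models named at 20 h were the 2 of highest score, the most abundant and the 2 of smallest overlap. In each comparison at 1 h, the 2 called members with the largest rise and fall were named, or 1 where none was called. Members and rules were chosen with earlier results of these data known. Leaving out each control butterfly, other scalings, filters, summaries, sexes and inserts were tried.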

Additional observations from a re-analysis of the deposited data

Results flagged for a closer look

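In 48 control groups of named members, the highest or lowest butterfly was compared with its nearest neighbour relative to the group's range. By a set limit, 6 stood apart. That limit is passed in about 1 of 20 groups of normally distributed values. It was applied to CPM without a log, and the levels of MCINXTMP_008527 were split. How often such levels pass it by chance was not tested, so the 6 are a description only. MCINXTMP_008527 was at 2221 CPM in male butterfly 5 of PT Control1h, with the next at 290.8 CPM. MCINXTMP_013508 was at 30740 CPM in male butterfly 6 of PT Control20h, with the next at 12690 CPM. MCINXTMP_012925 was at 25.65 CPM in female butterfly 1 of AL Control1h, with the next at 7.133 CPM. MCINXTMP_009618 was at 240.6 CPM in female butterfly 2 of AL Control1h, with the next at 75.25 CPM. In male butterfly 5 of PT Control1h it was at 296.2 CPM, with the next at 106.6 CPM. MCINXTMP_004285 was at 146.1 CPM in female butterfly 3 of AL Control1h, with the next at 38.56 CPM. Butterfly 5 of PT Control1h thus stood apart in 2 members.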

How the results depend on the processing

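Of the 50 members, the rule chose 23 again with means in place of medians, 31 with TMM-scaled library sizes, 31 with the authors' normalized table, 19 with a mean of at least 5 CPM, 19 in females alone, 27 in 650 nt libraries alone and 28 in 450 nt libraries alone. With a pseudocount of 2 CPM it chose 49 again, and leaving out 1 control butterfly at 20 h it chose 38 to 44. For flight in AL at 1 h, 2 members were called by DESeq2, 1 without a filter on low counts, and 0 to 1 without 1 control butterfly, the 1 being MCINXTMP_012925 without AL butterfly 1 or PT butterfly 2, 3 or 5. AL over PT in Control1h gave 4 members in females alone and 6 to 8 without 1 control butterfly, AL over PT in Flight1h gave 15 to 16, and the sex comparison gave 6 in PT alone and 10 to 13 without 1 control butterfly. The causes were not tested. Flight in PT and the AL minus PT difference gave 0 members under all alternatives run. R20 of the members named for their 20 h values kept its sign under the alternatives run. So did the flight, island and sex estimates of the members named at 1 h. R20 of other members did change sign: in PT females alone it was -0.46 for MCINXTMP_009618, -0.95 for MCINXTMP_006611 and -2.28 for MCINXTMP_000927. For MCINXTMP_004285, R20 in PT was 0.37 with the sexes together, but -0.21 in females and -0.13 in males. Medians over both sexes mixed 9 females and 6 males in PT Flight20h, and 5 females and 2 males in PT Control20h. With 6 or 7 controls a group, small differences were not detectable. Inserts were compared within butterflies; between flown and control butterflies, islands or sexes, no paired analysis was possible because replicate numbers were given in accession order and pair no butterflies.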
